A study of Homo sapiens with 8 samples.

Results

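The 41 miRNAs described here are the entries of the deposited table that name an arm, 5p or 3p, and carry a miRNA number of 3000 or above. Names for miR-4485, miR-6516 and miR-10395 were left out by the rule. Of 594 miRNAs in the table, 71 carry such a number, 25 of those name no arm and 5 were left out. The remaining 41 comprise 10 5p arms and 31 3p arms. They belong to 39 hairpin names, and both arms are listed for only 2 of these, miR-3613 and miR-10401. The member with the lowest number is miR-3065-3p, at 17.4 ± 9.81 RPM (SD, n = 2) in wild type. The highest arm-named number below the limit is miR-2467-5p, at 35.7 ± 6.99 RPM.

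Human miRNAs are numbered in the order of their registration, so high numbers mark hairpins that were annotated late, mostly from deep sequencing and at low levels. Dicer is the RNase III enzyme that cuts hairpin precursors into a 5p and a 3p strand; its RNase IIIb domain makes the cut that frees the end of the 5p strand. A miRNA made by Dicer is lost when the enzyme is lost, and S1344L, a cancer hotspot substitution in the RNase IIIa domain, is known for lowering 5p strands while sparing 3p strands. Mirtrons take their hairpin ends from splicing of a short intron and skip the nuclear cut by Drosha, but they still need Dicer.

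All libraries come from H1, an established human embryonic stem cell line. The study compared 4 genotypes with 2 small RNA libraries each: wild type, Dicer-S1344L homozygous (pmpm in the labels), Dicer-S1344L hemizygous (pmfs) and Dicer-null (fsfs). The mutant alleles were made with CRISPR-Cas9. No further allele, agent or time is named, and how many edited clones stand behind a genotype is not given in the sources used here. DICER1 RNA is not part of a miRNA table, so the edit itself was not checked.

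Each library held between 1000101 and 2725756 miRNA reads outside the null and 165317 and 137655 in the null. RPM is used here in the authors' sense, with a denominator they set for each library and 0.5 of a read added. The miRNA reads were 2.09 to 2.43 times that denominator in wild type, in the homozygous cells and in hemizygous replicate 2, 0.729 times in hemizygous replicate 1, and 0.118 and 0.183 times in the null. Hemizygous replicate 1 therefore stands apart from its replicate, and some hemizygous results are given with and without it. The 8 listed pluripotency miRNAs, among them miR-302b-3p and miR-372-3p, were all measured and summed to between 369244 and 1195320 RPM outside the null and to 61848 and 83726 RPM in it. Sums over markers of other cell types ran from 141 to 2376 RPM for blood cells (4 of 5 measured) and from 1178 to 29733 RPM for fibroblasts (5 of 9). Those for neural cells (3 of 3) ran from 698 to 29548 RPM. Of the markers measured, none had 0 reads outside the null, and the fibroblast marker miR-143-3p had 0 in both null libraries. The part of such cells in the results below was not tested.

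The members held 0.106% to 0.129% of the miRNA reads outside the null and 0.203% and 0.320% in it. Their mean level in wild type ran from 1.97 to 661 RPM with a median of 21.3 RPM, against a median of 257 RPM over all miRNAs. One read corresponds to between 0.715 and 1.33 RPM. In the null libraries 12 and 13 members had no read, and 29 and 28 had 3 reads or fewer.

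RefSeq (GRCh38.p14) holds a mature sequence for 35 of the 41 members; miR-10401-3p, miR-10401-5p, miR-5001-3p, miR-6747-3p, miR-7112-3p and miR-9983-3p have no entry there. Capitals mark the seed, bases 2 to 8, which pairs with target RNAs. The first set carries the largest falls without Dicer, with both strands of miR-3613, the hairpin whose 2 arms both fell.

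hsa-miR-4787-3p: gAUGCGCCgcccacugccccgcgc

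hsa-miR-3200-3p: cACCUUGCgcuacucaggucug

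hsa-miR-4707-3p: aGCCCGCCccagccgagguucu

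hsa-miR-3613-5p: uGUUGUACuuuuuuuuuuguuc

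hsa-miR-3613-3p: aCAAAAAAaaaagcccaacccuuc

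miR-4787-3p lies at chr3:50675130-50675153 on the plus strand, inside the RefSeq extent of DOCK3 and upstream of its nearest GENCODE start. miR-3200-3p lies at chr22:30731610-30731631 (plus) in an OSBP2 intron. miR-4707-3p lies at chr14:22956957-22956978 (minus), where its hairpin overlaps the 5′ UTR of HAUS4. The miR-3613 arms lie at chr13:49996465-49996486 (5p) and chr13:49996426-49996449 (3p), minus strand, in an intron of the long noncoding RNA DLEU2. miR-3613-5p holds a run of uridines and miR-3613-3p a run of adenosines.

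The second set shows members that did not pass the test for a fall in the null, together with miR-10396b-3p, which did and lies near a copy of miR-6724-5p.

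hsa-miR-6724-5p: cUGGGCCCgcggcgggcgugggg

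hsa-miR-10523-5p: gACAAUGAugagaagaccugagga

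hsa-miR-10392-5p: gCGCUUCGacgggcugggcugug

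hsa-miR-10396a-5p: gGCGGGGCucggagccggg

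hsa-miR-10396b-3p: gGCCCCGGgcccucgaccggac

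RefSeq places miR-10396b-3p at chr21:8436353-8436374 (plus), inside RNA45SN1, a gene for the 45S precursor of ribosomal RNA. A copy of miR-6724-5p lies at chr21:8432540-8432562 (plus), with its hairpin 601 bases from the same gene, and a second identical copy is annotated on the same chromosome. miR-10396a-5p lies on chromosome 21 too, at chr21:8987617-8987635 (plus), and overlaps no 45S gene of the annotation. miR-10392-5p lies at chr11:64878587-64878609 (minus), in the 5′ UTR of EHD1, and miR-10523-5p at chr5:172915083-172915106 (plus), where ERGIC1 isoforms give a 3′ UTR or an intron. Reads from the arrayed 45S copies or from a host mRNA cannot be told apart from reads of the miRNA in this table.

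The third set ends at the 3′ end of an intron. The last bases are CAG in each.

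hsa-miR-4728-3p: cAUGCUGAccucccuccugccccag

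hsa-miR-5010-3p: uUUUGUGUcucccauuccccag

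hsa-miR-6799-3p: uGCCCUGCaugguguccccacag

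hsa-miR-6820-3p: uGUGACUUcuccccugccacag

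hsa-miR-6775-3p: aGGCCCUGuccucugccccag

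miR-4728-3p ends at a splice acceptor of ERBB2 (chr17:39726537-39726561, plus) and miR-5010-3p at one of ATP6V0A1 (chr17:42514267-42514288, plus). miR-6799-3p ends at an acceptor of AP2A1 (chr19:49791912-49791934, plus), miR-6820-3p at one of POLR2F (chr22:37967603-37967624, plus) and miR-6775-3p at one of SLC7A5 (chr16:87834592-87834612, minus). The same holds for miR-4749-3p in PTOV1, miR-6803-3p in PPP6R1 and miR-7111-3p in RPL10A. Of 26 member 3p arms with coordinates, 8 ended within 2 bases of a GENCODE splice acceptor, against 2 of 241 3p arms (0.830%) with lower numbers. The 8 members ended exactly at theirs. No 5p arm ended at an acceptor, among 9 members and 194 lower-numbered arms with coordinates. Among all members with a sequence, 9 of 35 (25.7%) ended in CAG or UAG, read on the miRNA strand, against 24 of 435 (5.52%) with lower numbers. The ninth is miR-3117-3p, in an SGIP1 intron but not at its end. Median GC content of the mature sequence was 59.1% for members and 47.6% for lower numbers. Seeds were mostly private: only miR-3173-5p and miR-6799-3p share one (GCCCUGC) within the set. miR-10396a-5p shares its seed with miR-744-5p, and miR-6775-3p with miR-1291.

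Without Dicer most late-annotated miRNAs fell on the deposited scale. Values were tested with limma on log2(RPM + 1), which understates changes of low miRNAs, and called at an adjusted p under 0.05 over all 594 miRNAs. In the null against wild type, 32 of 41 members were lower and 0 were higher, while 87.2% of all miRNAs were called lower and 1.35% higher. The count at an unadjusted p under 0.05 was the same, 32 lower and 0 higher. Their median log2 change was -2.96, against -4.49 over all miRNAs. With the 7 members that had no read in either null library set to 3 reads per library, the median was -2.74. By arm, 27 of 31 3p arms (87.1%) and 5 of 10 5p arms (50%) were called lower. Among all miRNAs the shares were 90.7% of 3p arms and 89.9% of 5p arms. Level matters here. Under a mean of 20 RPM over the 8 libraries, 66.7% of 6 member 5p arms were called lower, against 71.4% of lower-numbered ones. For 3p arms at that level it was 82.4% of 17 members against 82.1%. At 20 RPM or more it was 25% of 4 member 5p arms against 94.0%, and 92.9% of 14 member 3p arms against 93.3%. Fewer cells and less RNA per cell cannot be told apart in such bulk samples.

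The 4 members with the largest falls were all 3p arms at 181 RPM or more in wild type. miR-4787-3p, the most abundant member, stood at 699 and 622 RPM in wild type, 267 and 215 in homozygous cells, 92.2 and 198 in hemizygous cells, and 2.50 and 15.3 in the null. The 4 genotypes did not overlap, in the order wild type, homozygous, hemizygous and null. Its log2 change in the null was -6.45 ± 0.99 (SE; limma adjusted p = 7.7e-10). miR-3200-3p stood at 169 and 194 RPM in wild type, 82.1 and 52.3 in homozygous, 14.9 and 43.0 in hemizygous, and 1.07 and 0.665 in null libraries. The null values are 1 read and 0 reads, and the change was -6.61 ± 0.99 (adjusted p = 3.4e-10). miR-9983-3p ran from 186 and 198 RPM through 71.5 and 53.5 in homozygous and 9.84 and 43.0 in hemizygous cells to 1.07 and 2.00 in the null. Its genotypes also kept apart, with a null change of -6.27 ± 0.99 (adjusted p = 2.04e-09). miR-4707-3p stood at 183 and 237 RPM in wild type, 29.1 and 21.0 in homozygous, 7.65 and 20.5 in hemizygous, and 1.07 and 5.99 in null libraries. All mutant libraries lay below both wild-type libraries, and the null change was -5.78 ± 0.98 (adjusted p = 1.72e-08).

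**Figure D1:**
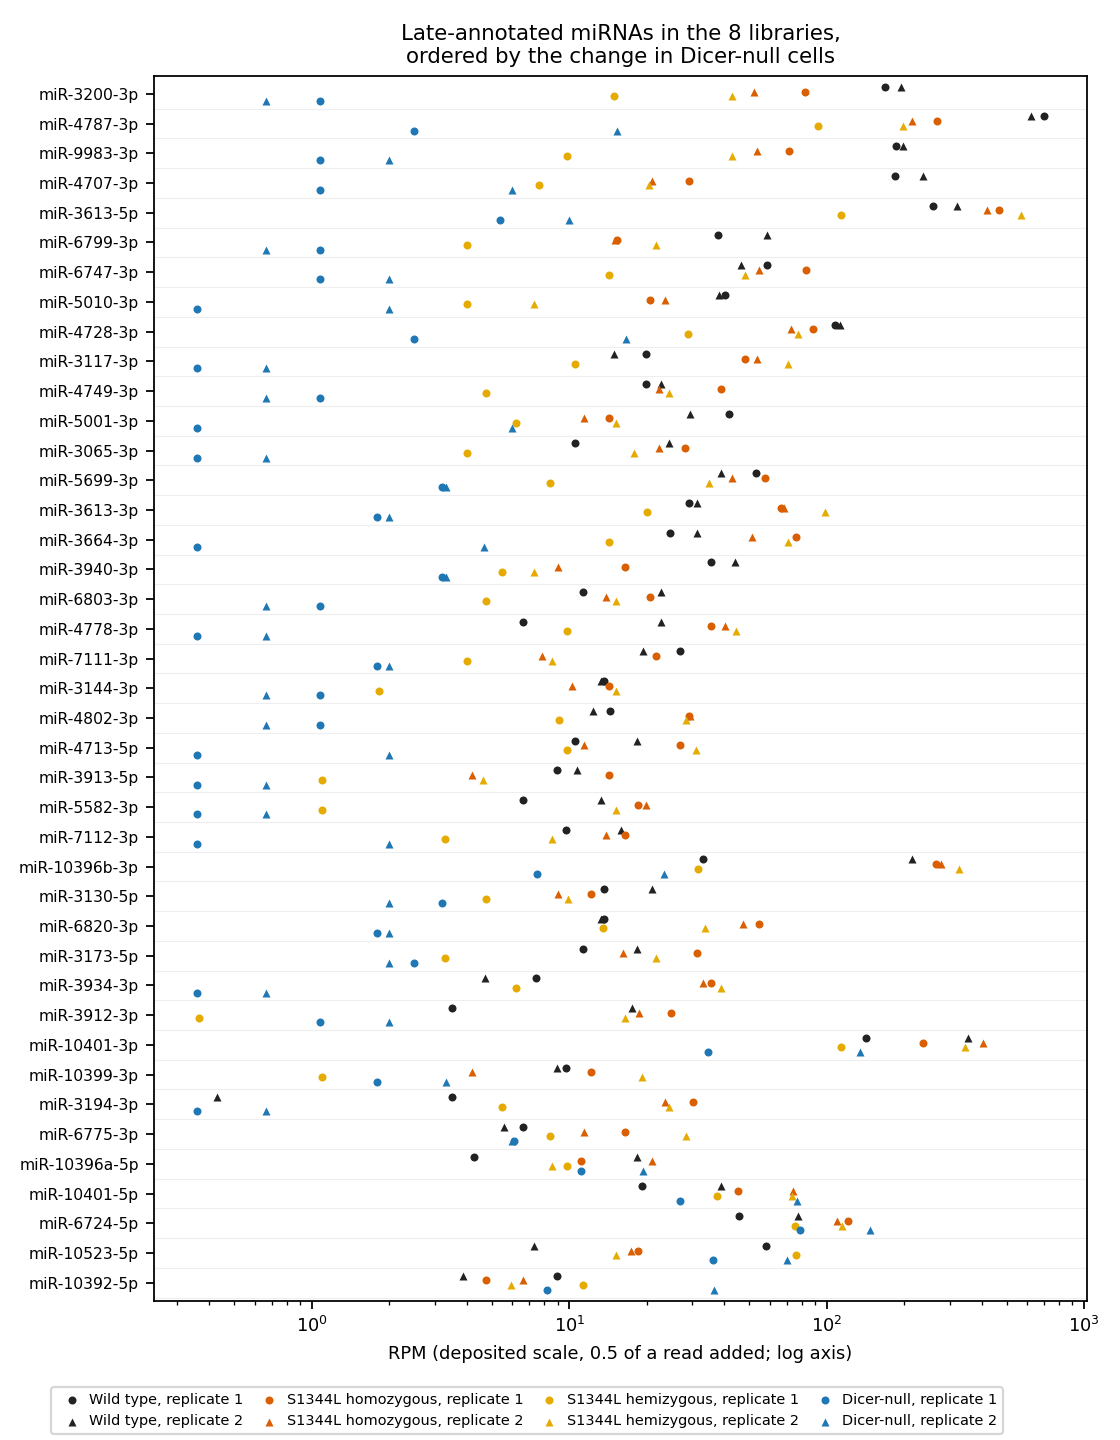
Level of each of the 41 members in the 8 libraries, in RPM on a log axis, with 1 marker per library and the members ordered by their log2 change in the null. From miR-3200-3p at the top, where the null libraries lie far left of the others, the order runs to miR-10392-5p at the bottom, where the null libraries lie among or right of them.

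At moderate levels the direction was the same. miR-6799-3p was at 48.2 ± 14.7 RPM in wild type and 0.869 ± 0.287 RPM in the null (log2 change -4.69, adjusted p = 9.07e-07). miR-6747-3p was at 52.7 ± 8.60 and 1.53 ± 0.654 RPM (-4.42, adjusted p = 1.14e-05), and miR-5010-3p at 39.1 ± 1.44 and 1.18 ± 1.16 RPM (-4.31, adjusted p = 5.2e-06). miR-4728-3p, from the ERBB2 intron, was at 108 and 113 RPM in wild type and at 2.50 and 16.6 RPM in the null (-3.82, adjusted p = 0.00021). The remaining 3p calls fell between -1.87 for miR-3912-3p and -3.60 for miR-3117-3p. Some had no read in either null library, so their folds are lower bounds. With 3 reads per library as the floor, miR-3065-3p was at least 5.69-fold, miR-3117-3p at least 5.68-fold and miR-4778-3p at least 4.77-fold lower. For miR-5582-3p the bound was at least 3.24-fold lower and for miR-3934-3p at least 1.97-fold lower.

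Of the 32 calls, 20 passed in each of the 8 fits that leave out 1 library. The total was 22 without wild-type replicate 2, 23 without null replicate 1 and between 28 and 34 otherwise. miR-10396b-3p lost its call without wild-type replicate 2 (log2 change -1.25, adjusted p = 0.420) and without null replicate 1 (-1.82, adjusted p = 0.176). The other 11 that lost it at least once were miR-3130-5p, miR-3173-5p, miR-4713-5p, miR-3664-3p, miR-3912-3p, miR-3934-3p, miR-4778-3p, miR-5001-3p, miR-5582-3p, miR-6820-3p and miR-7112-3p. The highest wild-type mean among these 11 was 35.6 RPM, that of miR-5001-3p.

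The scale decides how the null result reads. On the deposited scale the median miRNA fell by 4.49 in log2. With the miRNA reads of a library as its own total, the median became -0.84, and it was -0.32 with median-ratio, 0.23 with upper-quartile and -0.33 with quantile scaling. The members then split into 7 lower and 9 higher, 5 and 12, 3 and 13, and 6 and 7, in that order. All 594 miRNAs split into 266 lower and 80 higher, 177 and 114, 97 and 166, and 167 and 99. The 3 members called lower under all 5 scalings were miR-3200-3p, miR-4787-3p and miR-9983-3p. How many of all 594 miRNAs were called lower under all 5 was not counted. Under all 5 scalings 6 members lay below the median of all miRNAs: these 3, miR-3613-5p, miR-4707-3p and miR-6799-3p. miR-3613-5p and miR-4707-3p were called lower under 4 scalings and not under upper-quartile scaling (log2 changes -0.31 and -1.32). Which scale stands nearer to RNA per cell was not tested, since the table holds 0 spike-in entries.

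**Figure D2:**
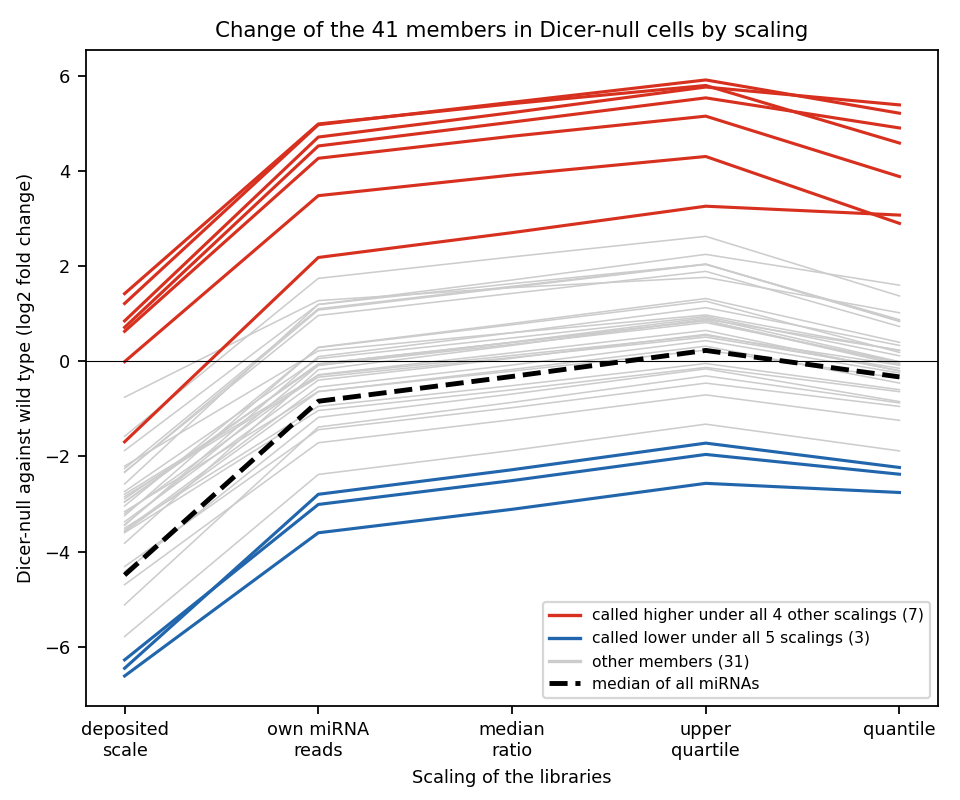
Log2 change of each member in the null against wild type under the deposited scale and 4 other scalings; each line is 1 member and the dashed line is the median of all 594 miRNAs. The median moves from -4.49 to between -0.84 and 0.23, 3 members (blue) are called lower under every scaling, and 7 (red) are called higher under the 4 scalings other than the deposited one.

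Not called lower in the null were 9 members, 5 of them 5p arms. miR-6724-5p stood at 45.6 and 77.4 RPM in wild type, 121 and 110.0 in homozygous, 75.4 and 114 in hemizygous, and 79.0 and 147 in null libraries. Both null libraries lay above both wild-type libraries, and the log2 change was 0.85 ± 1.00 (limma adjusted p = 0.408). In reads, the null held 110 in each library, out of totals far smaller than those of wild type, which held 58 and 90. miR-10523-5p stood at 58.0 and 7.27 RPM in wild type, 18.5 and 17.4 in homozygous, 76.1 and 15.2 in hemizygous, and 36.1 and 69.9 in null libraries. The groups overlap, with a change of 1.21 ± 0.99 (adjusted p = 0.235). miR-10401-5p stood at 19.1 and 38.9 RPM in wild type and 26.8 and 76.5 RPM in the null (0.71 ± 1.00, adjusted p = 0.491).

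The remaining 5p arms of this kind are less abundant. miR-10392-5p had 11 and 4 reads in wild type and 11 and 27 in the null, or 6.40 ± 3.61 and 22.4 ± 20.1 RPM (1.42 ± 0.91, adjusted p = 0.127). miR-10396a-5p had 5 and 21 reads in wild type and 15 and 14 in the null (0.63 ± 0.93, adjusted p = 0.514). Their intervals are wide: the 95% interval of the change in the null was -0.35 to 3.20 for miR-10392-5p and -1.20 to 2.46 for miR-10396a-5p.

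Among 3p arms without a call, miR-10401-3p was the most abundant. It stood at 142 and 353 RPM in wild type, 236 and 403 in homozygous, 113 and 343 in hemizygous, and 34.7 and 135 in null libraries. The null lay below wild type in both libraries, without passing the test (-1.69 ± 0.97, adjusted p = 0.0896). It passed when fitted on the 4 libraries compared (adjusted p = 0.0490) and without either hemizygous library (0.0352 without replicate 1, 0.0353 without replicate 2) or without null replicate 2 (0.0425). miR-6775-3p, the SLC7A5 intron end, had 8 and 6 reads in wild type and 8 and 4 in the null, with a change of -0.01 ± 0.92 (adjusted p = 0.993). miR-10399-3p, in the 3′ UTR of ZC3HAV1, had 12 and 10 reads in wild type and 2 in each null library (-1.58 ± 0.87, adjusted p = 0.0784). miR-3194-3p, from an NFATC2 intron, had 4 reads and 0 in wild type and none in the null, so no fold can be given.

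Of these 9 members 7, namely the 5 5p arms, miR-10401-3p and miR-6775-3p, were called higher in the null under each of the 4 scalings other than the deposited one. The same count was not made over all miRNAs. For miR-6724-5p the log2 change was then 4.71 to 5.76, and for miR-10523-5p 4.97 to 5.91. The reference value on the deposited scale is miR-451a, which Argonaute 2 cuts in place of Dicer: it was at 369 ± 125 RPM in wild type and 128 ± 23.2 RPM in the null (-1.49, adjusted p = 0.121).

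The S1344L genotypes were examined next for the loss of 5p strands. Among member 5p arms, 0 of 10 were called lower in homozygous cells, where 48.9% of all 5p arms were called lower. In hemizygous cells 0 of 10 were called lower, against 60.8% of all 5p arms. At an unadjusted p under 0.05 the counts were 0 in homozygous and 1 in hemizygous cells, against 128 and 160 of all 227 5p arms. The median log2 change of the 10 was 0.47 in homozygous and 0.16 in hemizygous cells, against -2.41 and -3.06 for the 215 5p arms with lower numbers. None of the 10 therefore showed both the fall in the null and the 5p loss in both S1344L genotypes. A fall in the null without a call in either S1344L genotype was found for 5 (miR-3130-5p, miR-3173-5p, miR-3613-5p, miR-3913-5p and miR-4713-5p), and 5 were not called lower in any genotype.

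Level limits this comparison. Of the 10 member 5p arms 6 averaged under 20 RPM over the 8 libraries, and of 14 lower-numbered 5p arms under 20 RPM only 2 were called lower in homozygous (14.3%, median -0.56) and 4 in hemizygous cells (28.6%, median -1.50). At 20 RPM or more, 109 of 201 lower-numbered 5p arms (54.2%, median -2.58) were called lower in homozygous cells and 134 of 201 in hemizygous cells. Of the 4 members at that level, miR-6724-5p, miR-10401-5p and miR-10523-5p were not lower in the null. This leaves miR-3613-5p as the only well-measured 5p member that fell without Dicer.

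miR-3613-5p stood at 259.7 and 321 RPM in wild type, 467 and 419 in homozygous, 114 and 569 in hemizygous, and 5.36 and 9.98 in null libraries. Both homozygous libraries lay above both wild-type libraries, and the hemizygous libraries lay on either side. The null change was -5.12 ± 0.98 (limma adjusted p = 5.53e-07). In homozygous cells the change was 0.61 ± 0.98 (95% interval -1.32 to 2.54, adjusted p = 0.722) and in hemizygous cells -0.18 ± 0.98 (-2.11 to 1.75, adjusted p = 0.922). The median of the lower-numbered 5p arms, -2.41 in homozygous and -3.06 in hemizygous cells, lies outside both intervals. Those arms varied, however: 103 of 215 were not called in homozygous and 77 of 215 in hemizygous cells. For 12 of the 215, both homozygous libraries also lay above both wild-type libraries. miR-3613-5p was called higher in both genotypes under median-ratio (0.80 and 0.93), upper-quartile (1.51 and 1.63) and quantile scaling (1.49 and 1.44). For comparison, let-7a-5p changed by -5.35 and miR-17-5p by -2.61 in homozygous cells (adjusted p = 3.82e-06 and 0.00618).

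**Figure D3:**
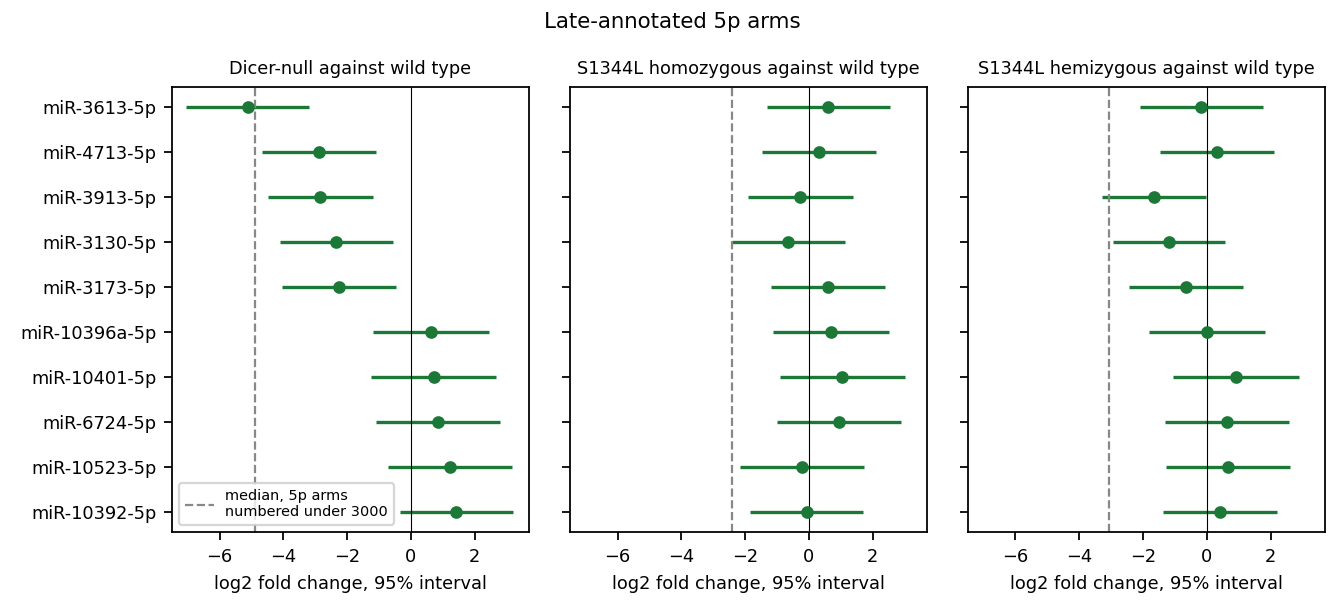
Log2 change of the 10 member 5p arms against wild type, with 95% intervals from limma, in Dicer-null, homozygous and hemizygous cells; dashed lines mark the medians of the 215 lower-numbered 5p arms. miR-3613-5p lies at -5.12 in the null but at 0.61 and -0.18 in the S1344L genotypes, right of the dashed lines at -2.41 and -3.06.

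The remaining 5p arms called lower in the null were low throughout. Of these, miR-3130-5p and miR-3173-5p turned to called higher in the null with median-ratio (log2 changes 1.56 and 1.58) and upper-quartile scaling (2.04 for both), as did the 3p arm miR-6820-3p (1.43 and 1.89). miR-3130-5p, which 2 overlapping loci on opposite strands of chromosome 2 encode, had 17 and 24 reads in wild type, 11 and 7 in homozygous, 6 and 7 in hemizygous, and 4 and 1 in null libraries. Its values were below wild type in all 6 mutant libraries, with log2 changes of -2.33 in the null (adjusted p = 0.0111), -0.64 in homozygous (0.677) and -1.18 in hemizygous cells (0.346). miR-3913-5p had 11 and 12 reads in wild type, 13 and 3 in homozygous, 1 and 3 in hemizygous and none in null libraries, at least 3.20-fold lower in the null. Its hemizygous change of -1.65 had a 95% interval of -3.30 to -0.01 (adjusted p = 0.116), and it was called lower there under quantile scaling. miR-4713-5p, at 10.5 and 18.4 RPM in wild type, changed by -2.89 in the null (adjusted p = 0.00204) and by 0.32 in both S1344L genotypes.

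miR-3173-5p lies in an intron of DICER1, the gene edited in these cells (chr14:95137961-95137982, minus). It stood at 11.3 and 18.4 RPM in wild type, 31.2 and 16.2 in homozygous, 3.28 and 21.8 in hemizygous, and 2.50 and 2.00 in null libraries. The null fell below every other library (-2.25 ± 0.91, adjusted p = 0.0160), and the S1344L libraries overlap wild type (0.61 and -0.64). How far the edits touch its host transcript was not tested. Without hemizygous replicate 2, 3 of the 10 5p arms, miR-3130-5p, miR-3173-5p and miR-3913-5p, were called lower in hemizygous cells, where the replicate left is the one that stands apart. Without hemizygous replicate 1 the count stayed at 0.

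For 2 hairpins the arms could be compared within a library, which cancels the scale apart from the 1 RPM added to each arm. The log2 ratio of 3p over 5p of miR-3613 was -3.11 and -3.32 in wild type, -2.80 and -2.61 in homozygous, -2.45 and -2.52 in hemizygous, and -1.19 and -1.87 in null libraries. The 5p arm was the more abundant in all 8 libraries. The ratio changed by 0.51 ± 0.50 in homozygous (adjusted p = 0.353 over 186 hairpins), 0.73 ± 0.50 in hemizygous (0.190) and 1.68 ± 0.50 in null cells (0.0146). The null ratio rests on 2 and 1 reads of the 3p arm and 7 reads of the 5p arm in each library. With the 3p arm at 1.79 and 2.00 RPM there, the added 1 RPM draws the null ratio toward 0. Its share in the null change was not tested. For miR-10401 the ratio was 2.83 and 3.15 in wild type, 2.36 and 2.43 in homozygous, 1.57 and 2.21 in hemizygous, and 0.36 and 0.81 in null libraries. It fell in hemizygous (-1.10 ± 0.38, adjusted p = 0.0163) and null cells (-2.41 ± 0.38, adjusted p = 0.000279) but not by the test in homozygous cells (-0.59 ± 0.38, 0.164). In homozygous cells 80.1% of all hairpins had a shifted ratio, and 0 of these 2 did.

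Few 3p members passed the test with S1344L, which does not show that their levels were those of wild type. The fitted change exceeded 1 in log2, in either direction, for 18 of 31 3p arms in homozygous and 16 of 31 in hemizygous cells, with SE of 0.86 to 1.00. In homozygous cells 1 of 31 3p arms was called lower and 2 were called higher, against 4.33% and 18.7% of all 3p arms. Their median log2 change was 0.36, against 0.69 for the 266 lower-numbered 3p arms. In hemizygous cells 5 of 31 were called lower and 1 higher, against 9.67% and 8% of all 3p arms, with a median of -0.88 against -0.15. That median depends on hemizygous replicate 1. Leaving it out moved the hemizygous median of all 41 members from -0.82 to 0.17, and that of all miRNAs from -0.89 to -0.0003. No member differed between hemizygous and homozygous cells by limma (smallest adjusted p = 0.661), nor did any of all 594 miRNAs. At an unadjusted p under 0.05, 3 members and 7 of all miRNAs did.

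**Figure D4:**
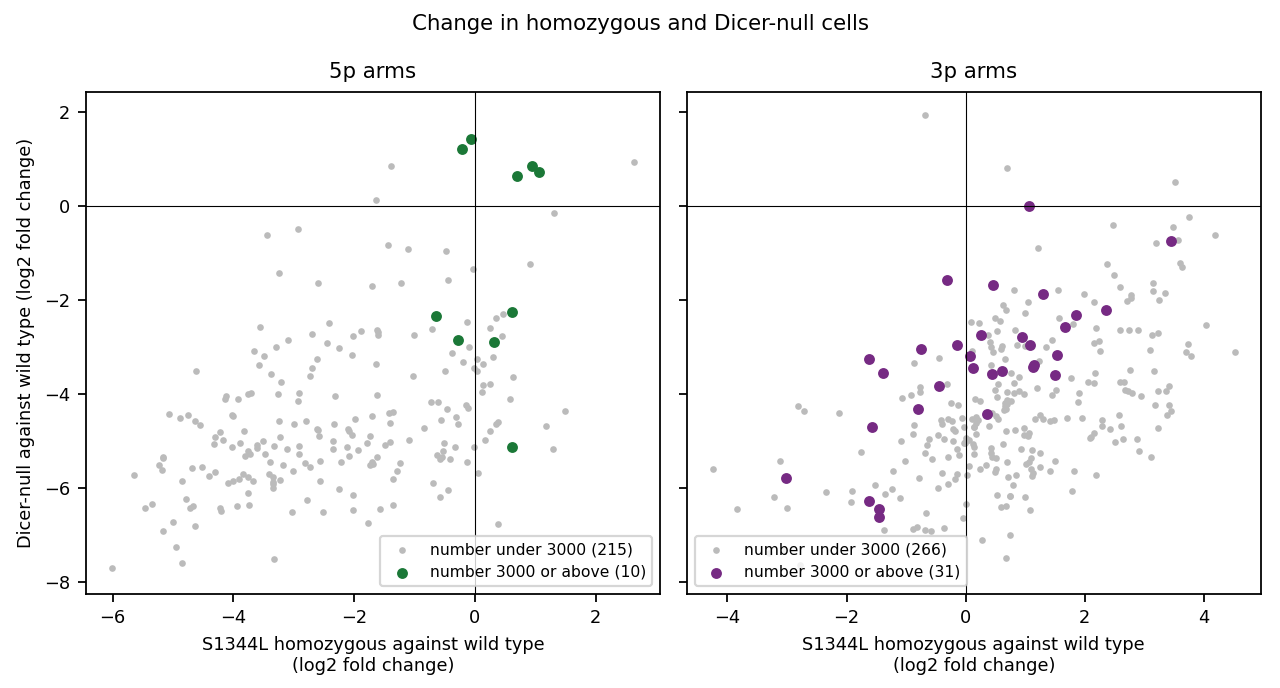
Log2 change in homozygous cells (x axis) against log2 change in the null (y axis), both against wild type, for 5p arms (left) and 3p arms (right); large points are members and grey points lower-numbered miRNAs. Both axes share the wild-type libraries; member 5p arms lie near 0 on the x axis (median 0.47) where grey 5p points center on -2.41.

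The single 3p arm called lower in both S1344L genotypes was miR-4707-3p, whose libraries are given above. Its log2 change was -3.02 ± 0.98 in homozygous cells (limma adjusted p = 0.00886) and -3.94 ± 0.98 in hemizygous cells (adjusted p = 0.000367), to 25.1 ± 5.72 and 14.1 ± 9.08 RPM from 210.4 ± 38.2 RPM. The homozygous call was lost without any one of the wild-type or homozygous libraries (adjusted p = 0.0911 to 0.190), and the hemizygous call was kept in all 8 such fits. It was called lower in both genotypes under all 5 scalings.

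A further 4 3p arms fell in hemizygous cells. miR-9983-3p changed by -3.14 ± 0.99 (adjusted p = 0.00626), miR-3200-3p by -2.78 ± 0.99 (0.0176) and miR-5010-3p by -2.64 ± 0.92 (0.0145). miR-3940-3p, within the coding sequence of KHSRP, had 45 and 51 reads in wild type, 15 and 7 in homozygous, 7 and 5 in hemizygous, and 4 and 2 in null libraries. All its mutant libraries lay below wild type, and the hemizygous change was -2.47 ± 0.92 (adjusted p = 0.0242). miR-4787-3p (-2.28, adjusted p = 0.0574) and miR-6799-3p (-2.17, adjusted p = 0.0529) missed the threshold, and both were called lower with a pseudocount of 5 RPM or without the variance trend. Without either wild-type library only miR-4707-3p remained called, and without either homozygous library 3 did. Without hemizygous replicate 2 the whole table moved down, since the library left is the one that stands apart. The median log2 change was then -1.65 over the 41 members and -1.91 over all miRNAs.

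In homozygous cells these members and miR-5001-3p also lay below both wild-type libraries, with log2 changes from -0.80 for miR-5010-3p to -1.62 for miR-3940-3p and miR-9983-3p. None of them passed the test in that genotype, with adjusted p from 0.189 to 0.600. The counts moved with the setting: 7 3p arms were called lower when only the 4 libraries compared were fitted, and 5 without either hemizygous library. The 7 were miR-3200-3p, miR-3940-3p, miR-4707-3p, miR-4787-3p, miR-5001-3p, miR-6799-3p and miR-9983-3p. The homozygous split of lower and higher members was 1 and 2 on the deposited scale. It was 5 and 4 when scaled to own miRNA reads, 2 and 7 with median-ratio, 1 and 18 with upper-quartile and 3 and 10 with quantile scaling. All 594 miRNAs split into 132 and 59 on the deposited scale. On the others they split into 200 and 113, 186 and 152, 150 and 254, and 165 and 189. For hemizygous cells, 5 and 1 on the deposited scale became 6 and 8, 4 and 10, 2 and 15, and 4 and 10 under the same scalings. The counts for all miRNAs went from 182 and 24 to 204 and 108, 184 and 160, 153 and 255, and 169 and 179. Over all miRNAs the median was -0.04 on the deposited scale and at most 0.82 on the others in homozygous cells, and -0.89 and at most 0.84 in hemizygous cells.

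In homozygous cells 2 3p arms rose. miR-3194-3p had 4 reads and 0 in wild type, 28 and 19 in homozygous, 7 and 18 in hemizygous, and none in null libraries. Every S1344L library lay above wild type, with log2 changes of 3.44 ± 0.86 in homozygous (adjusted p = 0.000662) and 2.34 ± 0.86 in hemizygous cells (adjusted p = 0.0221). The homozygous call was lost without homozygous replicate 1 and without wild-type replicate 2, the library with no read. The hemizygous call was lost in 5 of the 8 fits that leave out a library, those without wild-type replicate 2, either homozygous library, hemizygous replicate 2 or null replicate 2. miR-3934-3p, antisense to UQCC2, stood at 7.40 and 4.71 RPM in wild type and 35.5 and 33.1 RPM in homozygous cells (2.35 ± 0.90, adjusted p = 0.0306). Its call was lost in 6 of the 8 fits, all but those without a hemizygous library. Both arms were called higher in both S1344L genotypes under all 4 scalings other than the deposited one.

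The 8 members that end at a splice acceptor were compared with the other 3p arms by counts. In the null 7 of 8 were called lower, a share near the 87.2% of all miRNAs, with a median log2 change of -3.39 and miR-6775-3p as the exception. In homozygous cells 0 of 8 were called (median -0.19, from -1.57 for miR-6799-3p to 1.85 for miR-6820-3p). In hemizygous cells 1 of 8 was lower, miR-5010-3p, with a median of -1.04. The 18 other member 3p arms with coordinates had 16 calls in the null (median -3.20). Of these 18, 1 was lower and 2 were higher in homozygous cells (median 1.01), and 3 were lower and 1 higher in hemizygous cells (median -0.74). Of all 3p arms, 4.33% were lower and 18.7% higher in homozygous cells, and 9.67% and 8% in hemizygous cells. The position groups were formed after the values were seen, and a difference between them was not tested. miR-6820-3p stood at 13.6 and 13.3 RPM in wild type, 54.5 and 47.5 in homozygous, 13.5 and 33.7 in hemizygous, and 1.79 and 2.00 in null libraries. Homozygous libraries lay above all others, without passing the test (1.85 ± 0.95, adjusted p = 0.130). No annotated hairpin of the 8 members starts at a splice donor or spans a whole intron, and whether they are mirtrons was not tested. The 2 listed mirtrons measured, miR-1227-3p and miR-1237-3p, have lower numbers. They changed by -5.41 and -2.84 in the null and by -3.12 and 1.45 in homozygous cells.

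A list of miRNAs with a known mode of processing gives the frame: 9 of 14 were in the table. In the null 8 of these 9 were lower, all but miR-451a. In homozygous cells 4 were lower and none higher: let-7a-5p, miR-17-5p, miR-1227-3p (-3.12, adjusted p = 0.00390) and miR-484 (-4.23, adjusted p = 0.000226). miR-320a-3p and miR-484 come from capped precursors that skip Drosha. The 3p guides miR-302b-3p and miR-92a-3p changed by 0.43 and 0.46 in homozygous cells and by -3.01 and -3.11 in the null.

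The S1344L genotypes were also compared with the null. In homozygous cells 32 of 41 members were higher than in the null, against 76.3% of all miRNAs. These were 28 of 31 3p arms (90.3%) and 4 of 10 5p arms (40%), against 96.3% and 53.3% of all such arms. In hemizygous cells 22 of 41 were higher, against 63.8%. They were 20 3p arms (64.5%) and 2 5p arms (20%), against 90% and 34.4% of all such arms. These counts too depend on the scale: the split of lower and higher members was 0 and 32 in homozygous cells on the deposited scale and 10 lower with 9 to 12 higher under the 4 other scalings. In hemizygous cells it was 0 and 22 on the deposited scale and 11 lower with 6 to 9 higher on the others. Of all 594 miRNAs, 181 to 199 were lower and 194 to 227 higher in homozygous cells under those 4 scalings. For hemizygous cells 183 to 204 were lower and 192 to 212 higher. Both comparisons share the null libraries, and the values that follow are on the deposited scale. miR-3613-5p was 5.73 higher in homozygous and 4.94 higher in hemizygous cells in log2 (adjusted p = 3.08e-08 and 3e-06). miR-10396b-3p stood at 33.1 and 215 RPM in wild type, 266 and 278 in homozygous, 31.7 and 326 in hemizygous, and 7.50 and 23.3 in null libraries. Its libraries of wild type and of hemizygous cells differed several-fold within the genotype, and the null lay below all others. The difference from the null was 4.25 in homozygous and 2.85 in hemizygous cells (adjusted p = 4.5e-05 and 0.00836), and -2.58 ± 1.00 in the null against wild type (adjusted p = 0.0118). By contrast miR-6724-5p differed from the null by 0.10 and -0.21 (adjusted p = 0.935 and 0.861), and miR-10401-5p by 0.34 and 0.21 (0.766 and 0.865).

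Counted by pattern, 27 members were 3p arms that fell in the null, as the Dicer-product pattern asks (87.1%, against 90.7% of all 3p arms). Another 5 were 5p arms that fell in the null without a called 5p loss, a pattern not counted over all 5p arms. The last 9 did not pass the test in the null, where 87.2% of all miRNAs were called lower. On a scale set within each library, 3 members (miR-3200-3p, miR-4787-3p and miR-9983-3p) kept a called fall throughout, and 7 of the 9 were called higher. These counts over several scalings were not made for all miRNAs, so they are not shown to be particular to the members.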

How the data were processed

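Small RNA libraries from 8 H1 samples, 2 for each of 4 genotypes, were analysed. Values are log2 RPM as deposited by the authors, who added 0.5 of a read; each column is named for 1 library. Turned back, they gave whole reads to within 7.31e-09 of a read, which is the evidence for the unit. Per the submitters' processing notes, cutadapt, limma and hg38 were used; the sources used here do not give aligner, counting, annotation or scaling. No molecular identifiers are named, so limits from read counts cover counting error only.

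Values were turned back to RPM and tested with limma 3.58.1 (R 4.3.3) on log2(RPM + 1), with group means over all 8 libraries, a variance trend and Benjamini-Hochberg adjustment over the 594 miRNAs, all of which passed a filter of 5 RPM in at least 2 libraries. With 2 libraries per group there were 4 residual degrees of freedom, and the prior was infinite (Inf), so the spread depends on level alone. Errors on RPM are SD over 2 libraries and on log2 changes SE; 95% intervals use that SE. Arm ratios were tested likewise over 186 hairpins. The fits were tested on simulated data. Sequences and coordinates are from RefSeq (GRCh38.p14) and gene context from GENCODE 29 (GRCh38), the build of the files.

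Members and lists were chosen with earlier results of these data known. The rule for full values took the 10 most abundant members, hairpins with both arms, the largest called changes at 50 RPM or more and members of that level without a fall in the null, 13 in all; others were named after their values were seen, and the groups by genomic position were formed then. Alternatives were 2 pseudocounts, 2 filters, 4 scalings, no trend, only the libraries compared, a replicate block and each library left out.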

Additional observations from a re-analysis of the deposited data

How the results depend on the processing

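Depth limits most members: 23 of 41 averaged under 20 RPM and 28 or 29 had 3 reads or fewer in a null library. Members lower in the null numbered 12 with a filter of 50 RPM (16 members left), 7 on own miRNA reads, 5 with median-ratio, 3 with upper-quartile and 6 with quantile scaling, and 22 to 34 with 1 library left out; members higher numbered 9, 12, 13 and 7 under the 4 scalings. 5p arms lower in hemizygous cells numbered 1 with quantile scaling and 0 to 3 with 1 library left out. 3p arms lower in homozygous cells numbered 5 on own reads, 2 with median-ratio, 3 with quantile scaling, 7 on the 4 libraries compared, and 0 to 5 with 1 library left out. 3p arms lower in hemizygous cells numbered 3 with the 50 RPM filter, 2 with upper-quartile, 3 with quantile scaling, 1 on the 4 libraries compared, and 1 to 19 with 1 library left out. A group left with 1 library is assumed to vary like the others. Against the null, and chosen after seeing the data, members higher in homozygous cells numbered 10 on own reads, 9 with median-ratio, 9 with upper-quartile and 12 with quantile scaling, and in hemizygous cells 6, 6, 7 and 9. Among values of the 13 members named by rule that were called on either scale, signs in the null turned for miR-10396b-3p (1.19 on own reads, 1.71 median-ratio, 2.25 upper-quartile, 1.60 quantile), miR-10401-3p (2.18, 2.70, 3.26, 3.07), miR-3613-3p (0.40 median-ratio, 0.91 upper-quartile) and miR-4728-3p (0.33, 0.88 and 0.23 quantile). In hemizygous cells such values turned for miR-3613-5p (0.93, 1.63 and 1.44) and miR-10401-3p (1.63 upper-quartile). The scalings differ by construction in whether the total of a library may fall; other causes were not tested. Over these 13 members and 741 values, 615 kept sign and call, 61 gained a call, 24 lost one, 17 turned with a call on either side, and 24 turned with a call on neither; all 41 turns came from the scalings or from leaving out a library.

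The labels number the replicates alike but name no shared batch or day. Deviations of same-numbered replicates correlated at 0.617 between wild type and hemizygous cells and between -0.114 and 0.0973 in the other pairs of genotypes. The numbers therefore do not pair the samples across all genotypes, but wild-type and hemizygous replicates departed alike. The main fit of hemizygous cells against wild type leaves this link out, and its source was not tested. With a replicate block the counts were 32 members lower in the null, 1 3p arm lower in homozygous and 7 in hemizygous cells, where miR-4787-3p (adjusted p = 0.0341) and miR-6799-3p were the ones added.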

Other observations

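Wild-type replicate 1 and hemizygous replicate 1 departed from their partners in the same members. miR-10396b-3p had 42 reads in wild-type replicate 1 against 251 in replicate 2, and 43 against 246 in the hemizygous pair. miR-10523-5p went the other way, with 74 against 8 and 104 against 11 reads. In the homozygous pair the same members had 251 and 231, and 17 and 14 reads.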
